A study of Arabidopsis thaliana with 4 samples.

Results

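GASA genes encode small secreted peptides of Arabidopsis thaliana, and 10 of them were followed here in seedlings grown with or without the compound ASP. The members were the probe sets that the array annotation assigns to 1 listed locus only: GASA1 to GASA7, GASA9, GASA10 and GASA14. Each locus had 1 probe set of its own and none was shared with another gene, so that 10 of 22746 probe sets, or 10 of 21226 genes, were members. The family was picked with the difference between ASP and control already known, so the differences of its members are a description, and no call on a member is used as support. Of the other 5 listed GASA loci, GASA8, GASA11 and GASA12 had a probe set and were not members. GASA13 and GASA15 had no probe set of their own.

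GASA peptides carry a signal peptide and a C-terminal domain with conserved cysteines, and are named after GAST1, a transcript of tomato that gibberellin induces. Gibberellin binds GID1 receptors, which then bring about the breakdown of the DELLA repressors, and transcripts under DELLA control change in turn. In Arabidopsis the family has been linked to cell elongation, flowering, germination and the handling of reactive oxygen species. The workbook annotates all 10 members with the response to gibberellin and with the extracellular region. For most of them the annotation to gibberellin rests on sequence similarity, and GASA1 and GASA4 have one from a mutant phenotype.

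Whole 5-day-old seedlings of the accession Columbia 0 grew in long days (16 h light, 8 h dark) on 1/2 MS medium that held 0.1% sucrose, and the temperature was 22 to 24 °C. The control group had no ASP and the other group had ASP, a synthetic piperazine with a bromophenoxyacetyl group and a fluorophenylsulfonyl group, at a dose not given in the sources used here. Each group held 2 Affymetrix 3′ expression arrays, which the labels call biological replicates, and with so few arrays every value is imprecise. Nothing in the labels says whether the replicates were grown separately, so their spread may in part be technical. Values are the log2 signal deposited by the authors, given in the order control replicate 1, control replicate 2, ASP replicate 1 and ASP replicate 2, and a difference is ASP minus control on the log2 scale with its SE from the SDs of the groups (n = 2 each). Apart from sums over marker lists and the lowest present signals, signals of different probe sets were not set against each other.

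On these arrays GASA5 was 2.49-fold higher with ASP and GASA6 1.53-fold higher, GASA14 was higher by a smaller step, and GASA1 was the 1 detected member with both ASP arrays below both control arrays. GASA4, GASA7 and GASA9 had overlapping groups. GASA10 was detected on the ASP arrays only, close to the detection limit, and GASA2 and GASA3 were hardly detected at all. Of the 10 members 7 were called present on all 4 arrays, GASA10 on 2, GASA2 on 1 and GASA3 on none.

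**Figure D1:**
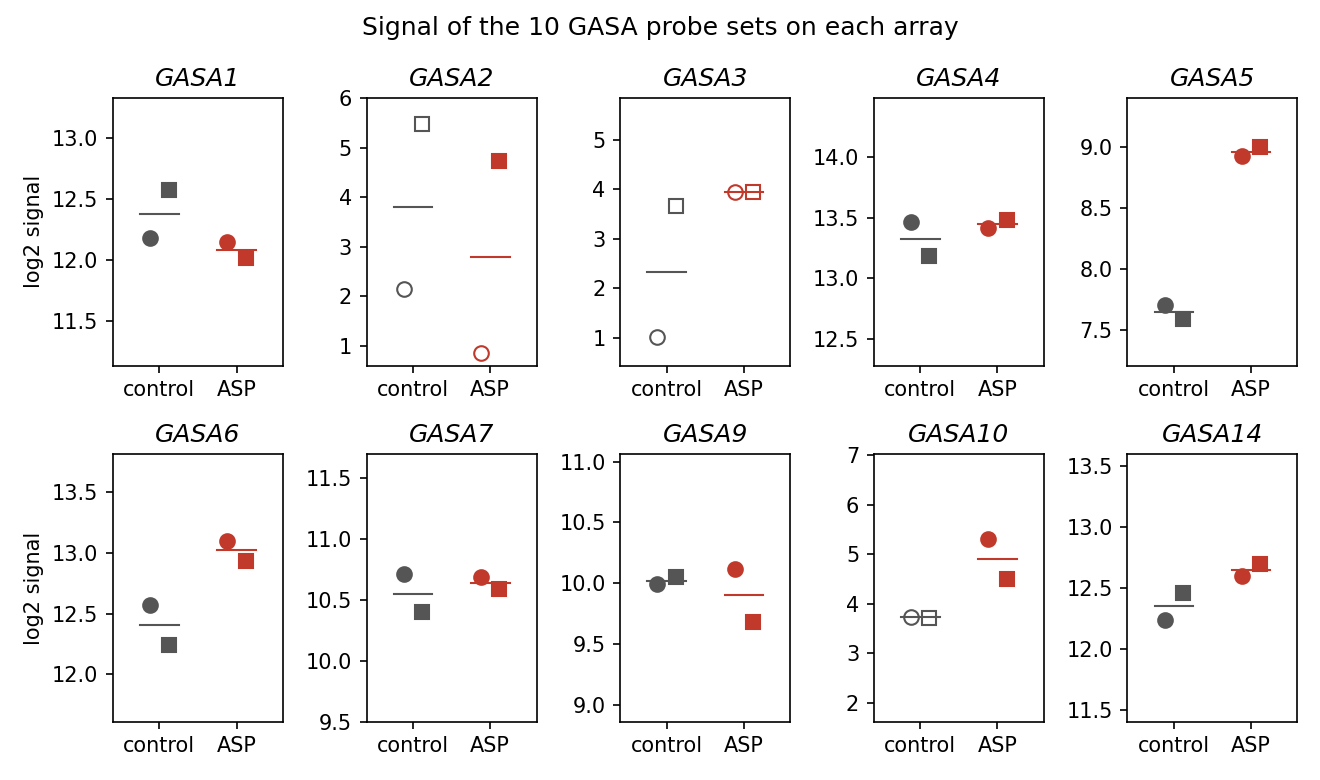
Log2 signal (y axis) of each GASA probe set on the control arrays (grey) and the ASP arrays (red), with circles for replicate 1, squares for replicate 2, open symbols for absent calls and lines for group means. The y axes span the same width for the 7 members present on all 4 arrays and a wider one for GASA2, GASA3 and GASA10. GASA5 shows the widest gap between groups among the 7, from 7.70 or less in control to 8.93 or more with ASP.

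GASA5 (AT3G02885) is known to delay flowering and to take part in thermotolerance. Its log2 signal was 7.70, 7.59, 8.93 and 9.00. Both ASP arrays lay far above both control arrays, and the arrays of a group lay close to each other. The group means were 7.65 ± 0.08 and 8.96 ± 0.05 (SD, n = 2 each), a difference of 1.31 with an SE of 0.07. Setting each ASP array against each control array gave 1.23 to 1.40. For comparison, the median SD within groups was 0.152 among the 14261 probe sets with 4 present calls, above both SDs of GASA5. Nothing is read from this, as the family was picked with the contrast known. The authors' deposited table gave a ratio of 2.25 for GASA5, from 3 columns per group, 1 of which matched no sample used here. That table holds the 148 probe sets that met the authors' limits on an unadjusted p and a 2-fold change, and GASA5 was the 1 member among them.

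GASA6 (AT1G74670), which promotes cell elongation in the germinating embryonic axis, had log2 signals of 12.57, 12.24, 13.10 and 12.93. Both ASP arrays were above both control arrays, and the gap between the nearest arrays was 0.36. The means were 12.41 ± 0.23 and 13.02 ± 0.12 (SD, n = 2 each), a difference of 0.61 with an SE of 0.18. The expansin gene EXPA1, which acts in cell wall loosening and has been placed downstream of GASA6 in germinating seeds, had overlapping groups and a difference of 0.27 (SE 0.21 from limma). EXPA1 was singled out after its values were seen.

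GASA14 (AT5G14920) has a long proline-rich stretch before its cysteine-rich domain, and has been linked to leaf growth and to the responses to abscisic acid and salt. Its log2 signal was 12.24, 12.46, 12.60 and 12.70. The ASP arrays were the higher ones, but by only 0.14 between the nearest arrays. The means were 12.35 ± 0.16 and 12.65 ± 0.07 (SD, n = 2 each), a difference of 0.30 with an SE of 0.12. Spike-in probe sets differed by a similar amount, with a median of 0.16 for 18 hybridisation controls and 0.27 for 24 labelling controls, of which 17 and 20 were higher with ASP. Their part in the difference of GASA14 was not tested.

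GASA1 (AT1G75750), one of the first members described and induced by gibberellin, had log2 signals of 12.18, 12.58, 12.15 and 12.02. Control replicate 1 and ASP replicate 1 were nearly level, 0.03 apart, and control replicate 2 stood above the other arrays. The means were 12.38 ± 0.28 and 12.08 ± 0.10 (SD, n = 2 each), a difference of -0.30 with an SE of 0.21. Without control replicate 2 the difference was -0.10.

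GASA4 (AT5G15230), expressed in meristems and linked to redox control, flowering and seed size, had log2 signals of 13.46, 13.18, 13.41 and 13.48. Control replicate 1 lay between the ASP arrays, so the groups overlapped. The difference was 0.12 with an SE of 0.14. GASA7 (AT2G14900) had signals of 10.71, 10.40, 10.69 and 10.59 and a difference of 0.09 with an SE of 0.16, with both ASP arrays inside the range of the control arrays. GASA9 (AT1G22690) had signals of 9.99, 10.05, 10.12 and 9.68 and a difference of -0.12 with an SE of 0.22, with the control arrays inside the range of the ASP arrays. In these 3 genes the difference was smaller than its own error, and its sign turned when 1 array was left out. GASA4 was at -0.02 and GASA7 at -0.07 without control replicate 2, and GASA9 was at 0.10 without ASP replicate 2.

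GASA10 (AT5G59845), a cell wall protein, was called absent on both control arrays and present on both ASP arrays. Its log2 signal was 3.73, 3.72, 5.31 and 4.51. Both ASP arrays were above both control arrays but apart from each other, and the control signals lay below the lowest present signals of any probe set on those arrays, which were 3.96 and 3.74. The difference was 1.18 with an SE of 0.40, and 0.79 without ASP replicate 1. Set against the mean of these lowest present signals on the control arrays, GASA10 was 2.09-fold higher with ASP, which leaves out the spread between arrays. These signals are no detection limit of GASA10 itself, and absent calls occurred above them, as for GASA2 at 5.47 on control replicate 2. The 2.09 is therefore no firm lower bound. With linear signals under 50 set to 50, a level that all 4 arrays stayed below, the difference was 0.00.

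GASA2 (AT4G09610) and GASA3 (AT4G09600) are neighbours on chromosome 4 with no protein-coding gene between them, and are known as genes of siliques and dry seeds. GASA2 had log2 signals of 2.14, 5.47, 0.86 and 4.74, with a present call on ASP replicate 2 alone. The replicates of a group were further apart than the groups, and no fold is given. GASA3 had signals of 1.02, 3.66, 3.94 and 3.95, all called absent, and no fold is given for it either. Seed storage and late embryo transcripts were likewise near background, with 7 of 8 absent on all 4 arrays and a summed linear signal of 134 to 158 in control and 86 to 115 with ASP. The exception was the cruciferin gene CRC, called present on 2 arrays. Median SDs within groups were 1.198 for all probe sets with a mean log2 signal under 4, so values of such dim probe sets carry little precision.

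**Figure D2:**
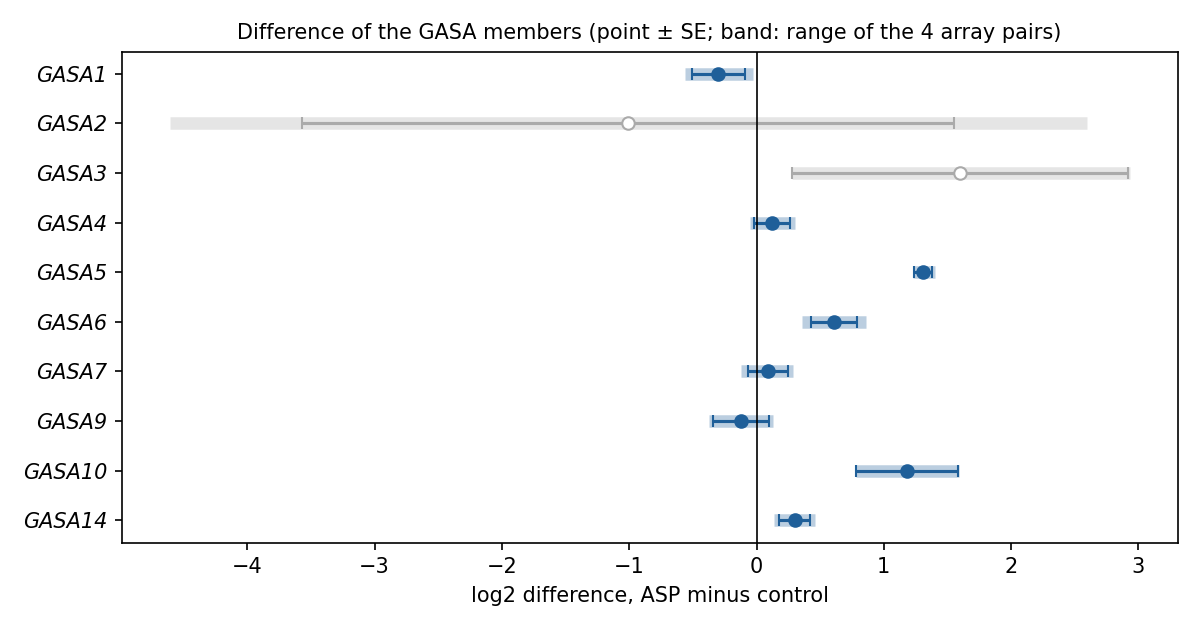
Log2 difference, ASP minus control (x axis), of each GASA member, as a point with its SE from n = 2 arrays per group and a band from the lowest to the highest of the 4 differences between an ASP and a control array. Grey open points mark GASA2 and GASA3, present on fewer than 2 arrays. The bands of GASA5, GASA6, GASA10 and GASA14 lie above 0, that of GASA1 lies just below 0 (-0.56 to -0.03), and those of GASA4, GASA7 and GASA9 span it.

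Taking the members together, both ASP arrays were above both control arrays in 5 of 10 members, against 18.5% of all probe sets, and below them in 1 of 10, against 20.9%. Of the 5, GASA3 was absent on all 4 arrays, and GASA10 was called present on the ASP arrays only. Among the 7 members present on all 4 arrays both ASP arrays were above in 3, against 21.4% of such probe sets. They were below in 1, against 20.5%. The mean signal was at least 2-fold higher with ASP in 3 members (GASA3, GASA5 and GASA10), against 4.78% of all probe sets. It was at least 2-fold lower in 1 (GASA2), against 7.27%. GASA2 and GASA3 enter these counts by signals near background, for which no fold is given. GASA10 went to 0.00 with linear signals under 50 set to 50. Among the 7 members present on all 4 arrays GASA5 alone was past 2-fold. Of such probe sets 0.498% were at least 2-fold higher and 0.533% at least 2-fold lower. The median difference was 0.21 over the 10 members and 0.12 over those 7, beside -0.019 over all probe sets and 0.003 where all 4 calls were present. Since the family was picked on this contrast, nothing is read from these shares.

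In the fit across all probe sets (limma without a trend), 0 members and 0 of 22746 probe sets, 0%, had a Benjamini-Hochberg adjusted p under 0.05, with a smallest limma adjusted p of 0.265, and 1688 probe sets had an unadjusted p under 0.05. When the variance prior was allowed to depend on the signal level (the intensity trend), limma called 34 probe sets higher, 0.149%, and 38 lower, 0.167%. GASA5 was 1 of the 34, and no other member was called. This call uses the contrast on which the family was picked, so nothing is read from it. When any 1 of the 4 arrays was left out of that trend fit, 9 to 37 probe sets were called and GASA5 was never among them.

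**Figure D3:**
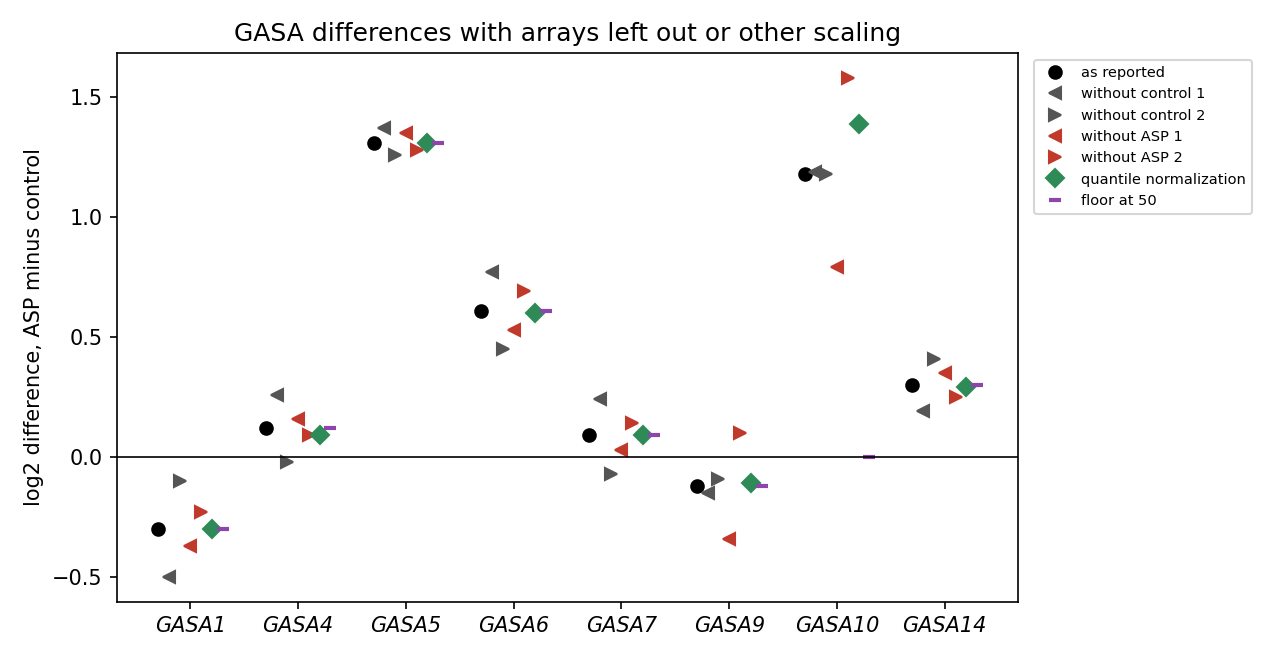
Log2 difference, ASP minus control (y axis), of the 8 GASA members present on at least 2 arrays, as reported (black circle), with 1 array left out (triangles), after quantile normalization (diamonds) and with linear signals under 50 set to 50 (dashes). GASA5 stays between 1.26 and 1.37 and GASA6 between 0.45 and 0.77, GASA10 goes to 0.00 with the floor, and the signs of GASA4, GASA7 and GASA9 turn when 1 array is left out.

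The samples were whole seedlings, and the summed signals of leaf and root markers did not overlap between the groups. Such a sum leans on its brighter genes and cannot show that all markers of a list differed. The leaf genes CA1 and RCA were present on all 4 arrays, with a summed linear signal of 21647 to 24013 in control and 27177 to 30763 with ASP, and the other 3 leaf genes listed had no probe set of their own. All 7 root markers had lower means with ASP, with a summed linear signal of 2752 to 4115 in control and 2387 to 2413 with ASP. The groups did not overlap for TIP2;3 at -1.94, CASP1 at -0.87 and PLT2 at -0.40, where 20.9% of all probe sets were lower without overlap. TIP2;3 was called present on the control arrays only. The groups overlapped for PLT1 at -0.72, COBL9 at -0.32, PRP3 at -0.20 and SCR at -0.04. Of the 7 root markers 5 were present on at least 2 arrays, PLT1 was absent on all 4 and PLT2 was called present on none. The 4 shoot meristem markers STM, WUS, CLV3 and CUC1 were called present on no array, although GASA4 transcripts are known from meristems. In whole seedlings, fewer cells of a type and less RNA per cell cannot be told apart, and the part of these markers in the GASA differences was not tested.

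The same contrast was then looked up for the other genes of the gibberellin pathway, in 3 lists. No gene of any list was called by limma with or without the trend, and the smallest limma adjusted p without the trend were 0.541 for synthesis, 0.573 for signalling and 0.711 for responsive genes. The values below are therefore differences that did not pass, with their SE from limma.

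Of the 25 genes of gibberellin synthesis and deactivation 11 were present on at least 2 arrays and 13 had an absent call on every array. Their median difference was 0.18, beside -0.02 over all genes, and 15 of 25 had a higher mean with ASP. At an unadjusted p under 0.05 there was 1 higher and 1 lower gene, where 3.33% of all probe sets were higher and 4.09% lower. The higher one was GA2OX6, which encodes an oxidase that inactivates gibberellins. Its log2 signal was 7.54, 7.47, 8.13 and 8.06, with both ASP arrays above both control arrays, and its difference was 0.59 (SE 0.14). GA3OX1, whose enzyme makes the last step to bioactive gibberellin, was at 8.82, 8.10, 7.90 and 7.94, a difference of -0.54 (SE 0.31), with control replicate 1 well above the other arrays. The oxidase gene KO of the early pathway was at 0.28 (SE 0.14). The methyltransferase gene GAMT2 was at 3.28, 5.58, 5.65 and 5.67, a difference of 1.23 (SE 0.90) with 3 present calls. Its control replicate 1, called absent, stood far below the other arrays, which were nearly level. ELA1, a cytochrome P450 that inactivates gibberellins, was at 5.50, 5.75, 5.55 and 4.56, a difference of -0.57 (SE 0.42). It had 2 present calls, both on control arrays, and its groups overlapped, with ASP replicate 2 below the other arrays. The lower one at an unadjusted p under 0.05 was CPS, which starts the pathway and was absent on all 4 arrays.

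Of the 18 receptor, DELLA and signalling genes 16 were present on at least 2 arrays, and 12 of 18 had a lower mean with ASP, with a median difference of -0.06. The 5 DELLA genes, which encode the repressors, had differences of both signs. RGL2 was at 6.77, 6.55, 5.76 and 6.01, a difference of -0.77 (SE 0.19), GAI was at 0.07 (SE 0.17), RGA at 0.04 (SE 0.30) and RGL1 at -0.05 (SE 0.20), and RGL3 was absent on all 4 arrays. Of the 3 receptor genes GID1B was at 8.31, 8.27, 7.74 and 7.88, a difference of -0.48 (SE 0.14), with both ASP arrays below both control arrays. GID1A was at -0.24 (SE 0.21) and GID1C at -0.02 (SE 0.25). RGL2 and GID1B were the 2 genes of the list with an unadjusted p under 0.05, both lower, where 4.09% of all probe sets were lower at that limit. With a replicate block, or without either control replicate, the number of such genes was 0. The factor genes MYB65 and IDD1 were at 0.41 (SE 0.29) and 0.16 (SE 0.14).

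Of the 12 gibberellin- and DELLA-responsive genes 11 were measured and 10 were present on at least 2 arrays. The median difference was 0.11, with 7 higher and 4 lower means and 0 genes at an unadjusted p under 0.05. The expansin gene EXPA8 was at 9.33, 8.93, 9.81 and 9.60, a difference of 0.58 (SE 0.22), with both ASP arrays above both control arrays. XTH9, a xyloglucan transglucosylase gene, was at 11.82, 11.85, 11.11 and 11.53, a difference of -0.51 (SE 0.21), with both ASP arrays below both control arrays. The bHLH factor genes PRE1, a promoter of growth, and SPT, which restrains it, were at 0.45 (SE 0.25) and -0.27 (SE 0.14), and MIF1, the gene next to GASA6, was at 0.30 (SE 0.20).

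**Figure D4:**
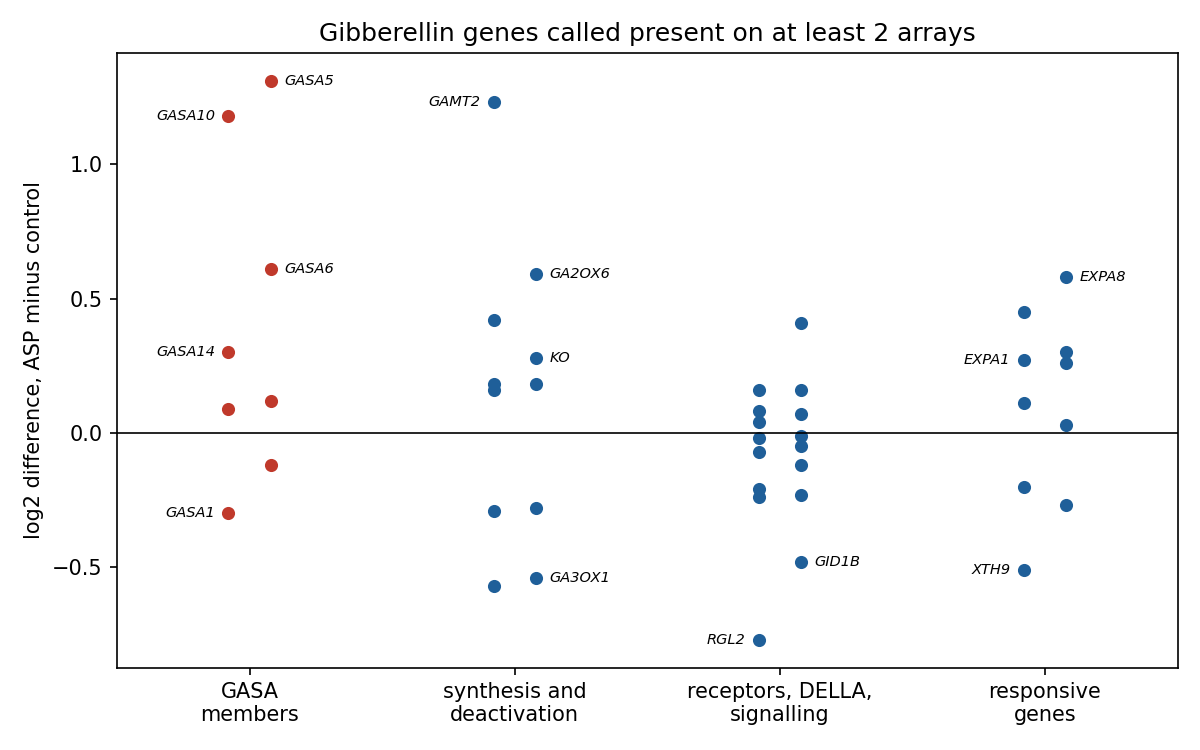
Log2 difference, ASP minus control (y axis), of each gene called present on at least 2 arrays, for the 8 GASA members (red) and the lists of 11 synthesis and deactivation genes, 16 signalling genes and 10 responsive genes (blue), with some genes labelled. GASA5 at 1.31 is the highest point, and RGL2 at -0.77 the lowest. GASA10 passed this filter through its ASP arrays only, and ELA1 and GA2OX2 through their control arrays only.

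Among the GASA loci outside the 10, GASA8 was called present on 3 arrays and marginal on 1, at 5.81, 5.56, 5.72 and 5.34. Its groups overlapped, with a difference of -0.15 (SE 0.22). GASA11 and GASA12 were absent on all 4 arrays.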

How the data were processed

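Total RNA of whole seedlings was amplified to biotin-labelled cRNA for Affymetrix arrays, per the labels' protocols. The authors deposited a normalized log2 signal and a detection call (present, marginal or absent) per probe set, per the file headers (summary method and software: not given in the sources used here). Log2 values of the deposited series matrix differed from them by at most 5e-09. A further deposited table gave the ratio of mean linear signals (fold change) and an unadjusted p-value from 3 columns per group, per the file headers. Names of 4 per-sample columns of the workbook matched no sample, and these were not used.

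The 64 control probe sets were set aside. Probe sets of 1 gene (21450 of 22746) were named, the brightest standing for a gene. Groups were compared in R 4.3.3 by the moderated two-sided test of limma 3.58.1 (no trend, 2 residual and 1.34 prior degrees of freedom), adjusted over all probe sets at 0.05. The method was run on simulated data in which probe sets of like signal shared a spread, unlike these data. That run does not show how many differences the fit misses here. Members and lists were chosen with earlier results of these data known. All members are described. Of each other list, up to 5 genes with the smallest p among those present on at least 2 arrays are named, and further ones were chosen after their values were seen. Folds against absent groups are set against the lowest present signal of any probe set, which is no detection limit of the probe set itself. Gene order came from the reference gene table of TAIR10.1. Planned protein and promoter sequences were not used here. Replicate numbers of the labels were not used to pair the arrays in the main fit. Same-numbered arrays deviated with a correlation of 0.000171 over all probe sets and -0.0238 over those present on all 4 arrays. These correlations cannot show whether same-numbered samples were grown together.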

Additional observations from a re-analysis of the deposited data

How the results depend on the processing

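The 0 probe sets called by limma without a trend became 72 with the intensity trend, 18 without the dimmest 30% of probe sets, 19 among probe sets present on at least 2 arrays and 1 with linear signals under 50 set to 50. With 1 array left out the count was 0 without the trend. With the trend, in fits added after the data were seen, 22 and 37 probe sets were called when control replicate 1 or control replicate 2 was left out, and 11 and 9 when ASP replicate 1 or ASP replicate 2 was. With a replicate block the count stayed at 0, with 1511 probe sets at an unadjusted p under 0.05, and the block changed no other call. An unmoderated test with equal variances, a robust prior, the series matrix values, median centring and quantile normalization also gave 0, with 1638, 1581, 1688, 1682 and 1642 probe sets at an unadjusted p under 0.05. No gene of the 3 gibberellin lists was called under any of these alternatives, the trend fits with an array left out aside, in which they were not counted. The median difference of the 10 members, 0.21, ran from 0.19 to 0.44 with 1 array left out, was 0.12 over the 7 left without the dimmest 30% and 0.04 with the floor at 50. Over all these alternatives the differences of GASA5, GASA6 and GASA14 ran from 1.26 to 1.37, 0.45 to 0.77 and 0.19 to 0.41, and that of GASA1 from -0.50 to -0.10. With 2 arrays a group, signal near background limits GASA2, GASA3 and GASA10.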

Other observations

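The workbook annotates 88 other genes, 1 probe set each, with the response to gibberellin, a term looked up after the data were seen. Of these 44 had a higher and 44 a lower mean with ASP, and their median log2 difference was 0.00. At an unadjusted p under 0.05 limma had 4 higher and 4 lower, 4.55% each, near the 3.24% higher and 4% lower over all genes, and 0 were called with or without the trend. Another term that covers all 10 members, the gibberellic acid mediated signaling pathway, held 82 other genes. Their median log2 difference was -0.04, with 39 higher and 43 lower means. Limma had 6 of them higher and 5 lower at an unadjusted p under 0.05, 7.32% and 6.1%, against 3.24% and 4% over all genes. With the trend 1 of the 82 was called, as higher, and without it 0. The extracellular region, which also covers all 10 members, held 1810 other genes, with 830 higher and 980 lower means. At that limit 3.87% of these were higher and 6.19% lower. Terms that hold fewer members or none were looked up too and are not described.

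Of 14 measured genes that lie next to a member and are not members themselves, 5 had both ASP arrays above both control arrays. Another 4 had both below and 5 overlapped. All were present on all 4 arrays, and among such probe sets 21.4% were above and 20.5% below. Both neighbours of GASA5 were among the 4 lower genes. AT3G02880 had a log2 difference of -0.26 and AT3G02890 of -0.38, against 1.31 for GASA5. Next to GASA6, MIF1 was at 0.30 against 0.61. Next to GASA1, AT1G75730 was at -0.68 and AT1G75760 at -0.18 against -0.30, and these were the other 2 of the 4. The neighbours of GASA7, GASA9, GASA10 and GASA14 ran from -0.22 for SAG101 to 0.22 for AT1G22700. These neighbours were taken from gene order alone, and none was called by limma without the trend, in which 0 probe sets passed.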
